A study of Arabidopsis thaliana with 77 samples.

Results

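The fixed background differences are the single-base variants at which all 5 sequenced genomes of the study were called with the same non-reference base on both chromosome copies. They were selected on measured values, namely by a homozygous genotype call (1/1) at the same position and with the same called base in every library. Of 15725 variants called on chromosomes 1 to 5 in any library, 918 (5.84%) met the rule. They were 31.8% of the 2883 variants called in all 5 libraries. The other 1965 of those 2883, called in every library but not homozygous in all, are the shared variants that are not fixed and serve as the comparison set.

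The libraries were made from genomic DNA of rosette leaves of Arabidopsis thaliana plants of the Columbia ecotype, 4 weeks old and grown on soil. One library is labelled rdr1 rdr2 rdr6. The other 4 are episuppressor lines labelled rdr1 rdr2 rdr6 ddm1 and named 2-69, 2-20, 3-72 and 3-75. All 5 libraries therefore share the labelled rdr1, rdr2 and rdr6 alleles, and no wild-type genome was used here. There was 1 library per line, so the values describe libraries, and nothing measures the spread between plants of a line. These 5 are among the 77 samples of the series, and the others were not analysed here.

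RDR1, RDR2 and RDR6 are RNA-dependent RNA polymerases, which copy single-stranded RNA into double-stranded RNA that Dicer-like enzymes cut into small RNAs. RDR2 acts in RNA-directed DNA methylation of transposons, and RDR6 acts in post-transcriptional silencing and in the making of trans-acting small RNAs. DDM1 is a chromatin remodeller that keeps DNA methylation in transposons and around centromeres. Differences from a reference genome that a whole set of lines shares are the background on which any further change in a line is read.

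Chromosomal sequence around the fixed variants that the account below turns on is printed from the RefSeq reference (TAIR10 chromosomes, top strand, 5′ to 3′), with the bases that the libraries replaced in capitals. The first entry holds the stop in RDR6. The next 3 come from a long run of G to A changes on chromosome 5, and the 2 after those hold adjacent pairs on chromosome 4. The seventh holds the stop in AT5G36320, and the last holds 4 fixed variants in the short repeat at the end of chromosome 2.
RDR6 chr3:18352371-18352431: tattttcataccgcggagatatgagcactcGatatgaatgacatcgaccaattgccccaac
EIR1 chr5:23104428-23104468: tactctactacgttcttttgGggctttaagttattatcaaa
AT5G60380 chr5:24286876-24286916: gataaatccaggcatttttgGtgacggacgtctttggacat
DGK2 chr5:25522269-25522309: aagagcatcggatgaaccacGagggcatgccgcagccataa
NRPD4 chr4:9040921-9040962: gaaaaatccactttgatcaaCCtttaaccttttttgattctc
BAM3 chr4:10951962-10952003: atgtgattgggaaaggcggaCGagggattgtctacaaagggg
AT5G36320 chr5:14327174-14327214: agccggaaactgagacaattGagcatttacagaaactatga
chromosome 2 end chr2:19697893-19698022: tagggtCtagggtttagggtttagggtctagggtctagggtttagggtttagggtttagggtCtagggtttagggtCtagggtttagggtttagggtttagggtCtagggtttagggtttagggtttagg

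The homozygous calls of a library numbered 1768 in 2-69, 1317 in 2-20, 1551 in 3-72, 1656 in 3-75 and 1231 in the one labelled rdr1 rdr2 rdr6. The fixed variants made up between 51.9% of these, in 2-69, and 74.6%, in the rdr1 rdr2 rdr6 library. The median number of high-quality reads for the called base at a fixed variant was 28 in 2-69, 18 in 2-20, 12 in 3-72, 16 in 3-75 and 26.5 in the rdr1 rdr2 rdr6 library. Calls in 3-72 thus rest on the fewest reads. At 531 fixed variants every library had at least 10 such reads, and at 63 the shallowest library had fewer than 3. No high-quality read for the reference base was seen in any library at 639 of the 918 (69.6%). Reference reads occurred at 14% of the fixed variants on the arms and at 39.6% of those near centromeres. Depth was also higher near centromeres in every library, and these shares were not adjusted for it.

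The genotype rule has a soft edge. Just outside it, among variants called in all 5 libraries, lay 58 that were homozygous in 4 and heterozygous in the fifth. Of these 58, 53 lay near centromeres. The odd library was 3-72 in 17 cases, 2-20 in 14, the rdr1 rdr2 rdr6 library in 10, 3-75 in 9 and 2-69 in 8. In that library the called base held 47.4 to 84.6% of the reads, with a median of 75.0%. Just inside the rule, the lowest share in any library at a fixed variant was 69.9%, and at 162 fixed variants it was under 90%. The ranges of reads inside and outside the rule therefore overlap. Variants homozygous in 4 libraries with no call in the fifth form a further edge that the 58 leave out. Where the fifth was the rdr1 rdr2 rdr6 library there were 8 of these.

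Fixed variants were dense around centromeres. Within 3 Mb of approximate centromere centres at 15, 3.6, 14, 4 and 12 Mb of chromosomes 1 to 5, a region that covers 25.2% of these chromosomes, lay 589 of them (64.2%, Wilson 95% interval 61 to 67.2). This is 19.6 per Mb there against 3.69 per Mb on the arms, a density 5.32 times higher. The shared variants that are not fixed were nearer to centromeres still, with 1801 of 1965 within 3 Mb (91.7%, 90.3 to 92.8). The pericentromeric share of the fixed variants was lower by 27.5 percentage points (two-sided Fisher's exact test, adjusted p = 9.42e-69 over the 6 shares tested). Neighbouring variants are linked and the test treats each as independent, so its p describes these sets of calls and not plants. Against all variants that are not fixed, called in any number of libraries, the difference was 1.03 points lower and did not pass (adjusted p = 0.625).

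**Figure D1:**
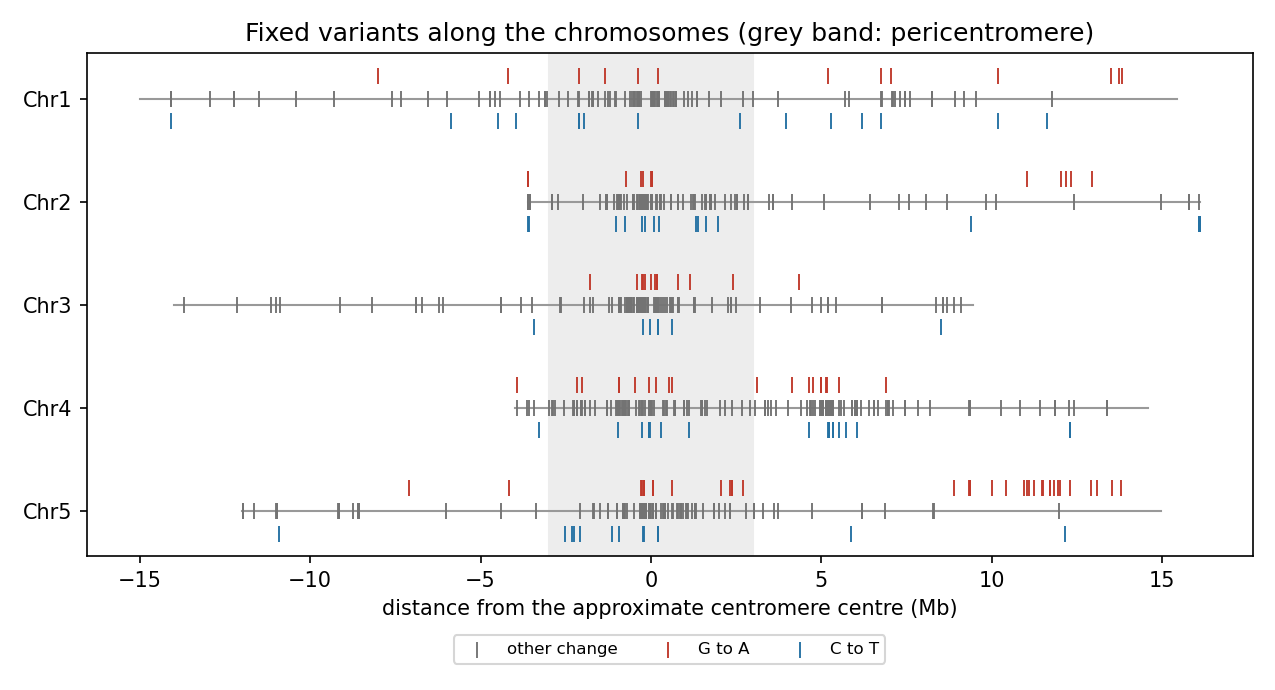
Position of the 918 fixed variants on the 5 chromosomes, as distance in Mb from the approximate centromere centre. Each tick is 1 variant, with G to A changes above each line, C to T changes below it and other changes on it, and the grey band is the pericentromere, which holds 589 of them.

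By chromosome, the arms carried 61 fixed variants on chromosome 1, 66 on chromosome 2, 36 on chromosome 3, 110 on chromosome 4 and 56 on chromosome 5. Per Mb of arm this was 2.50, 4.82, 2.06, 8.74 and 2.67 in the same order. On chromosome 2, 41 of the 66 lay at the very ends of the chromosome, 33 at its start and 8 at its far end. Without them its arms held 1.83 per Mb, the lowest of the 5 in place of the second highest. Nothing was removed from the other chromosomes, and the ends were picked out after the calls had been seen. Near centromeres the density was more even, from 14 per Mb on chromosome 1 to 23.0 on chromosome 2. The median window of 1 Mb held 3 fixed variants. The fullest, from 3 to 4 Mb of chromosome 2, held 87, and the fullest on an arm, from 9 to 10 Mb of chromosome 4, held 40.

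Read depth at many of the fixed variants near centromeres was far above the median depth at fixed variants on the arms. Depth was set against the median depth at fixed variants on the arms of the same library, which was 25 reads in 2-69, 16 in 2-20, 11 in 3-72, 12 in 3-75 and 23 in the rdr1 rdr2 rdr6 library. At 175 of 589 pericentromeric fixed variants (29.7%) and at 39 of 329 on the arms (11.9%) it was at least 3 times that median in all 5 libraries. Among shared variants that are not fixed, the share at such depth was 35.9% near centromeres and 9.76% on the arms. Whether reads of several copies of a sequence were counted together at these positions was not tested. Without all variants at such depth the difference in pericentromeric share was 29.8 points.

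**Figure D2:**
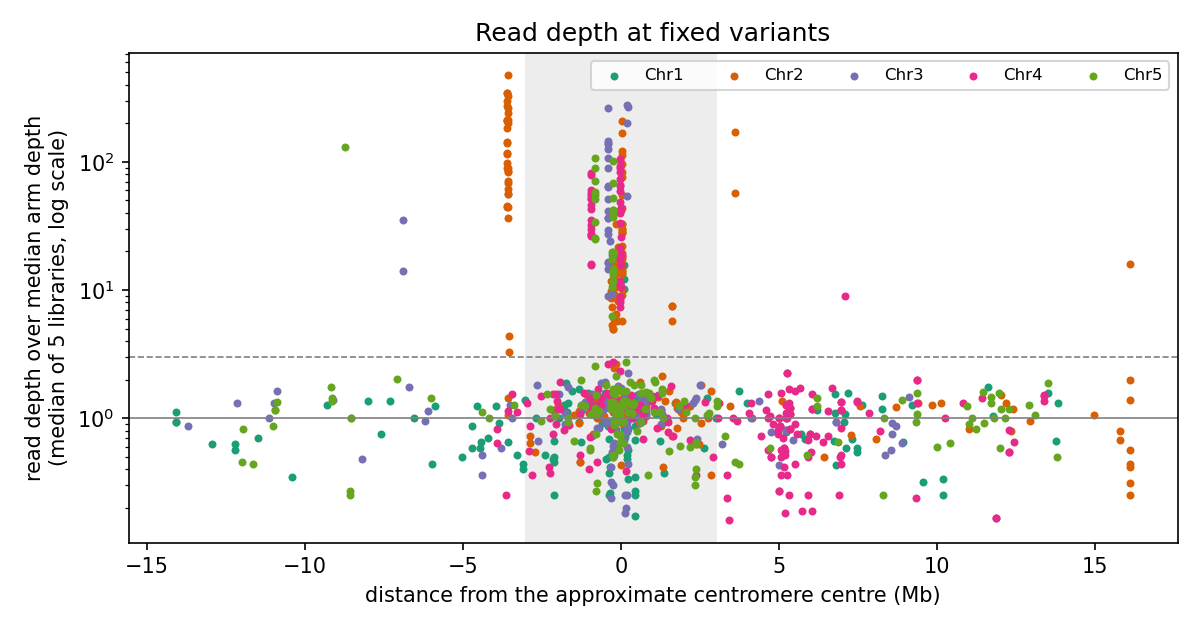
Read depth at each fixed variant over the median depth at arm fixed variants, as the median of the 5 libraries on a log scale, against distance in Mb from the centromere centre. The solid line is 1 and the dashed line 3 times the arm median, and most points far above the dashed line lie near centromeres or at the start of chromosome 2.

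The substitutions were mixed. G/C to A/T changes numbered 185 (20.2%, Wilson 95% interval 17.7 to 22.9), A/T to G/C 195 (21.2%), G/C to T/A 169 (18.41%), A/T to T/A 168 (18.30%), A/T to C/G 127 (13.8%) and G/C to C/G 74 (8.06%). Transitions, the exchanges within purines or within pyrimidines, made up 41.4% of the fixed variants (38.3 to 44.6) and 58.5% of the shared variants that are not fixed (56.3 to 60.7). That is 0.706 transitions for each transversion among fixed variants and 1.41 in the comparison set. In the comparison set 17.6% were G/C to A/T (15.99 to 19.4), and the difference of 2.54 points did not pass (Fisher's exact test, p = 0.11, adjusted p = 0.165). Within the arms the difference was 6.93 points (27.1% against 20.1%, Fisher's exact p = 0.0978), and within pericentromeres it turned to −1.08 points (16.3% against 17.4%, p = 0.571). Without the stretch of chromosome 5 described below, the share of arm fixed variants was 21.6% (66 of 305) in place of 27.1%. Against all variants that are not fixed, which include the changes private to a line, the difference in G/C to A/T share was −23.5 points (adjusted p = 2.45e-47).

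**Figure D3:**
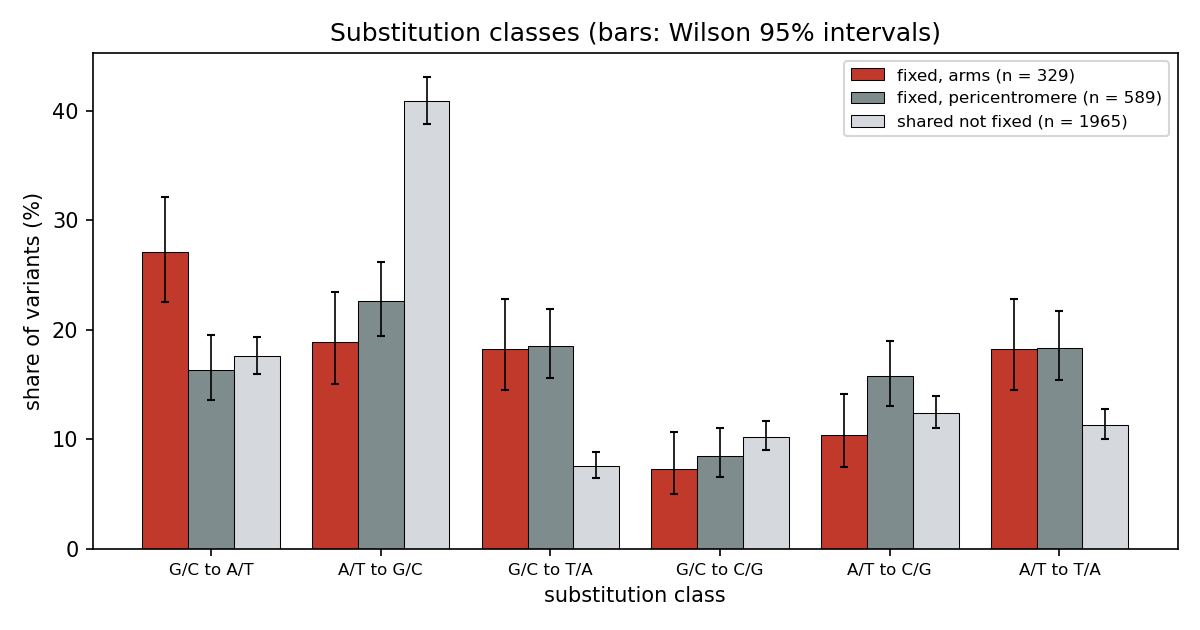
Share of each of the 6 substitution classes in percent, for fixed variants on the arms, fixed variants near centromeres and shared variants that are not fixed, with Wilson 95% intervals as error bars. G/C to A/T changes are the tallest class for arm fixed variants, at 27.1%, and A/T to G/C changes for the comparison set, at 40.9%.

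The arm G/C to A/T changes were not spread evenly. On chromosome 5, 17 consecutive G/C to A/T changes from position 20904067 to 24018928 were all G to A on the top strand. They were followed by 1 C to T change (C24140083T) and by 5 more G to A changes, the last at 25793477. This stretch of 4.89 Mb held 24 fixed variants, of which 22 were G to A, 1 was C to T and 1 was A to T (A23974116T). G/C to A/T changes were thus 23 of 24 there (95.8%), against 66 of the other 305 arm fixed variants (21.6%). The stretch was picked out after the calls had been seen, and G/C to A/T changes set both of its ends. The contrast is therefore a description with no test. Its members lay singly, with gaps from 8679 to 637650 bp and a median gap of 143927 bp. None lay at 3 times the arm depth. On the other 32 arm fixed variants of chromosome 5, 4 were G/C to A/T.

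Reads in the stretch were nearly all for the changed base. They ran from 10 to 44 with a median of 28 in 2-69, from 6 to 32 (median 17) in 2-20, from 2 to 18 (median 11.5) in 3-72, from 4 to 25 (median 12) in 3-75 and from 18 to 49 (median 25) in the rdr1 rdr2 rdr6 library. High-quality reference reads occurred at 1 of the 24 positions, in 2-69. The stretch lies on the side of DDM1 toward the centromere and ends 858675 bp before the DDM1 change G26652152A (C615Y; AT5G66750, named CHR1 in RefSeq), which is not a fixed variant. The rdr1 rdr2 rdr6 library had 9 reads for the change there and 10 for the reference base, while 2-69, 2-20, 3-72 and 3-75 had 23, 14, 10 and 7 for the change and 0 for the reference. The label of the first names no ddm1 allele, so that library is named by its label only. Beyond DDM1, toward the chromosome end, lay G26899512A and G26953620A, homozygous in the 4 lines and with no call in the rdr1 rdr2 rdr6 library. Across chromosomes 1 to 5, 936 variants were homozygous in all 4 lines, of which 918 were also homozygous in that library, 10 were heterozygous in it and 8 had no call there.

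**Figure D4:**
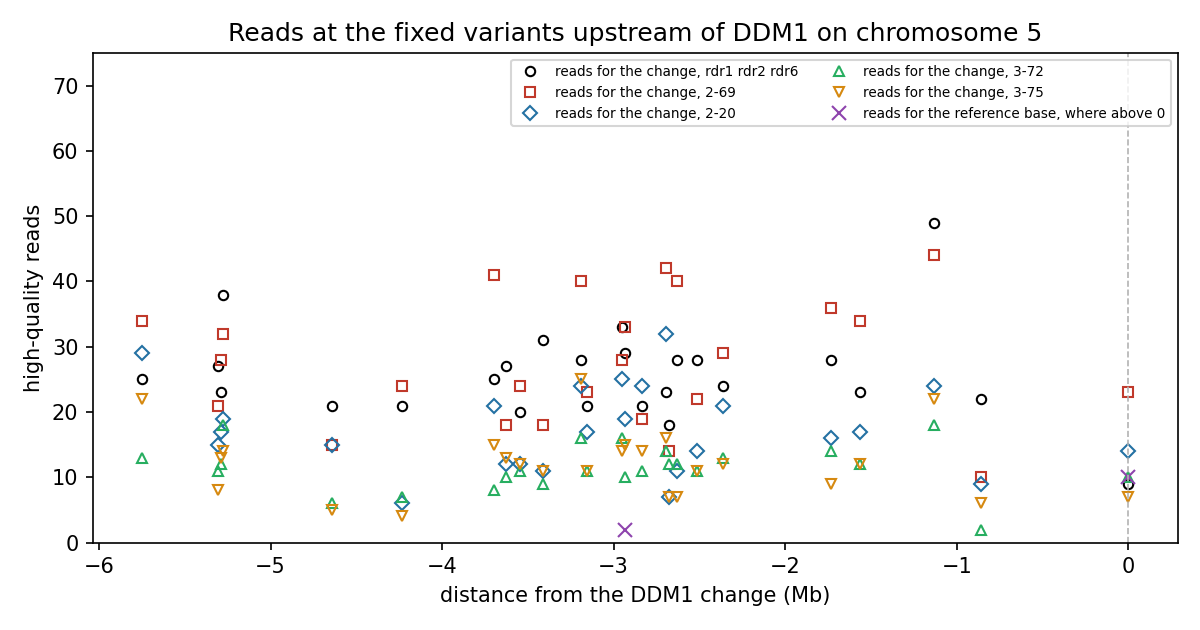
High-quality reads for the changed base in each library at the 24 fixed variants of the chromosome 5 stretch, and at the DDM1 change (dashed line), against distance from the DDM1 change in Mb. Crosses are reads for the reference base where above 0, which occur at 1 of the 24 fixed variants and, for the rdr1 rdr2 rdr6 library, at the DDM1 change.

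Of the 24 members of the stretch, 11 were coding, 4 lay in untranslated or other exons, 2 in introns and 7 between genes. 9 of the coding changes were missense and 2 synonymous. The genes named next were chosen after their values were seen, other than DGK2. EIR1 (AT5G57090), also known as PIN2, an auxin efflux carrier of the root, carried G23104448A (G646R). It had 24 reads in 2-69, 12 in 2-20, 11 in 3-72, 12 in 3-75 and 20 in the rdr1 rdr2 rdr6 library. HAG2, a histone acetyltransferase, carried G22955390A (T28I), with 41, 21, 8, 15 and 25 reads in the same order. ATTPPA, a trehalose-phosphate phosphatase, carried G20904067A (R340Q), and HSFB2A, a heat stress transcription factor, carried G24917117A (V275M). DGK2, a diacylglycerol kinase, carried G25522289A (R675Q) with 44, 24, 18, 22 and 49 reads in that order. The reads of all libraries showed the change in each of these genes, at the lowest 8 and at the highest 49.

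A shorter run of 5 G to A changes lay on chromosome 2 from 14622897 to 16537722, with 1 A to T change between them. Its last member, G16537722A, lies in TAS1C (AT2G39675), a transcript from which RDR6-dependent trans-acting small RNAs are made, and TAS1C was named after its value was seen. The other runs of 5 or more were 7 C to T changes within 1444 bp at the end of chromosome 2 and runs of 6 and 5 among the crowded variants of chromosome 4, where 13 and 14 other fixed variants lay in between.

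No fixed G/C to A/T change other than that in RDR6 itself lay within 3 Mb of RDR6 on its arm. RDR6 (AT3G49500, chromosome 3, 18348974 to 18353673, minus strand) carried the fixed variant G18352401A, a change of the codon CGA to the stop codon TGA (R269*). It was read 37 times in 2-69, 18 in 2-20, 11 in 3-72, 29 in 3-75 and 23 in the rdr1 rdr2 rdr6 library. Within 3 Mb on the same arm, 12 fixed variants were found, and the RDR6 change was the 1 G/C to A/T change among them (8.33%, Wilson 95% interval 1.49 to 35.4). On the rest of the arms 88 of 317 were G/C to A/T (27.8%, 23.1 to 32.9). The difference of −19.4 points did not pass (Fisher's exact test, adjusted p = 0.192). With only 12 variants the interval is wide, so the test cannot decide whether the shares differ. The power of the test was not computed. Without the chromosome 5 stretch the difference was −13.9 points (Fisher's exact test, adjusted p = 0.568). The window was proposed with earlier results known. It was centred on RDR6, so the choice of window itself brought in the 1 G/C to A/T change counted. The share, its interval and the test include that change. Apart from it, 0 of the fixed variants in the window on that arm were G/C to A/T.

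The fixed variants nearest to the RDR6 change were T18110990G, 241 kb away, and A18738148T, 386 kb away, both between genes. The nearest other fixed G/C to A/T change on chromosome 3 was G16408039A, 1.94 Mb away and inside the pericentromere, with 2 reads in its shallowest library. Of the 12 on the arm, 4 were adjacent pairs in exons of BAG4, a co-chaperone gene, outside its coding sequence, and 2 were an adjacent pair in UGP3, a UDP-glucose pyrophosphorylase of the plastid. BAG4 and UGP3 were chosen after their values were seen. The whole of the chromosome 3 arms held 3 fixed G/C to A/T changes among 36 fixed variants, the lowest count of the 5 chromosomes.

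Spacing was bimodal on the arms. The distance from a fixed variant to the nearest other one had a median of 9941 bp on the arms and 3750 bp near centromeres. On the arms 60 of 329 (18.2%) had another fixed variant within 2 bp and 105 (31.9%) had none within 100 kb. Near centromeres these shares were 1.02% and 5.60%. Most fixed variants were single, since 571 of the 918 had no other within 1 kb.

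**Figure D5:**
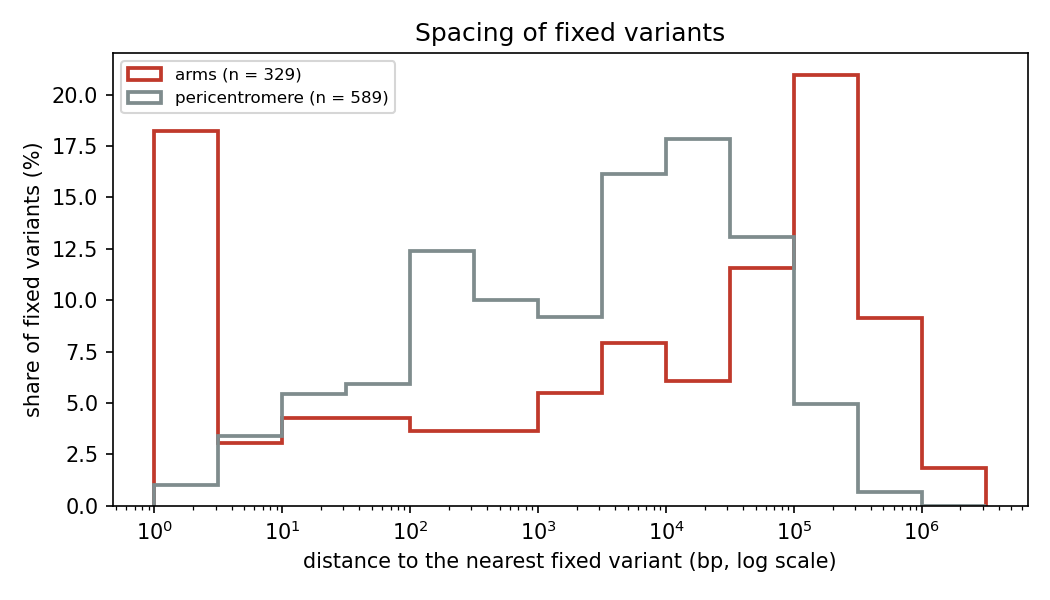
Distance in bp, on a log scale, from each fixed variant to the nearest other one, as percent of the 329 arm and the 589 pericentromeric fixed variants. Arm variants show 1 peak at 1 to 2 bp, with 18.2% of them, and another above 100 kb, with 31.9%.

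Clustering was compared over all variants called in all 5 libraries. Another such variant within 100 bp was found for 277 of the 918 fixed variants (30.2%, Wilson 95% interval 27.3 to 33.2) and for 918 of the 1965 that are not fixed (46.7%, 44.5 to 48.9). The difference was −16.5 points (Fisher's exact test, adjusted p = 7.48e-17). Within pericentromeres it was −18.8 points (Fisher's exact p = 6.7e-16), and on the arms it turned to 4.17 points (31.0% against 26.8%, p = 0.349). Against all variants that are not fixed it was −2.80 points (adjusted p = 0.189). A variant is clustered only through a neighbour, so clustered variants enter the counts in pairs and groups. Fisher's test treats each as independent, so these p-values describe sets of calls and overstate the evidence.

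Adjacent pairs of fixed variants numbered 22, of which 20 lay on the arms. In 10 of the 22, each position of the pair had the same number of reads for its called base in all 5 libraries. In 5 pairs the called bases were the reference bases in swapped order, as in BAM3 and GAMT1, where CG was replaced by GC. In 7 pairs, BAM3 and GAMT1 among them, both bases were replaced by their complements. From 8 to 11 Mb of chromosome 4, 11 of the 22 pairs were found. That interval held 76 fixed variants, 25.3 per Mb, against 2.94 per Mb on the rest of the arms. Within 2 bp of another lay 32 of the 76 (42.1%), and 28 of the other 253 arm fixed variants (11.1%). The interval was chosen after the calls had been seen, and none of its members lay at 3 times the arm depth. G/C to A/T changes were 23.7% of them.

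Groups of 5 or more fixed variants with gaps of at most 1 kb numbered 10 and held 137 members. The largest was at the start of chromosome 2, where 32 fixed variants lay between positions 1259 and 10152, over and around genes of ribosomal RNA and AT2G01008. Depth there was 24.5 to 662 times the arm median. The next 3 groups lay mostly between genes in pericentromeres, with 22 on chromosome 4 from 3950603, 18 on chromosome 3 from 13589009 and 17 on chromosome 4 from 3054852, each at 7.33 times the arm median or more. Both of the 2 groups on arms lay at the ends of chromosome 2. The group at its far end held 7 fixed variants from 19697738 to 19697997. Counting C19696553T, which lies outside that group, 8 lay between 19696553 and 19697997, of which 7 were C to T. Depth at these 8 was 0.2 to 22.6 times the arm median, with a median of 0.5. The called base had as few as 3 reads in a library, so these calls have thin support. In the printed window of 130 bases at that end, the unit TTTAGGG occurred 11 times in the reference on the top strand, overlaps counted, and 15 times with the 4 called bases put in. The interval from 3.2 to 3.7 Mb of chromosome 2, near a known insertion of mitochondrial DNA, held 77 fixed variants. Of these, 68 lay at 3 times the arm depth or more. The interval was chosen with earlier results known and is not 1 group by the 1 kb rule, under which it holds groups of 13 and 8. Of the 32 in the group at the start of chromosome 2, 3 were G/C to A/T, and from 3.2 to 3.7 Mb such changes were 14.3%.

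Between annotated genes lay 495 of the fixed variants (53.9%). Another 177 (19.3%) lay in annotated pseudogenes, 114 (12.4%) in coding sequence, 58 in introns, 40 in untranslated or other exons, 33 in genes of non-coding RNA and 1 at a splice site. The coding share was 12.4% for fixed variants (Wilson 95% interval 10.4 to 14.7) and 4.94% for shared variants that are not fixed (4.06 to 5.99), a difference of 7.48 points (Fisher's exact test, adjusted p = 1.16e-11). On the arms the shares were 25.5% and 9.15% (Fisher's exact p = 8.86e-06), and 51.2% of the arm comparison set lay in pseudogenes against 6.38% of arm fixed variants. Near centromeres the shares were 5.09% and 4.55% (Fisher's exact p = 0.576). Against all variants that are not fixed the difference was −0.461 points (adjusted p = 0.722).

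The coding changes were mostly missense. Of 114, 88 were missense, 23 synonymous, 2 gained a stop and 1 lost a stop, each taken alone. Protein-altering changes were 79.8% of the coding fixed variants (91 of 114, Wilson 95% interval 71.5 to 86.2) and 71.1% of the coding variants in the comparison set (69 of 97, 61.4 to 79.2). The difference of 8.69 points did not pass (Fisher's exact test, p = 0.15, adjusted p = 0.18). Counting the splice site, 73 of 27444 protein-coding genes (0.266%) had such a change, 55 of them on the arms.

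Lists of silencing, chromatin and centromere genes made for this work were looked up among the 73. At the share of 0.266% over all genes, lists of this size hold less than 1 altered gene, so a count of 0 says nothing about them. Of 36 RNA silencing genes 1 was altered, RDR6, and no other gene of the list held any fixed variant. Of 24 genes of DNA methylation and chromatin, 0 held one, and of 5 centromere and kinetochore genes, 0. The lists are not complete, and leave out NRPD4 and HAG2, which were altered. RDR1 (AT1G14790, chromosome 1, 5093961 to 5098270) and RDR2 (AT4G11130, chromosome 4, 6780449 to 6784632) held none. The files hold single-base calls and no insertions, so inserted alleles of these genes would not be seen in them.

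NRPD4 (AT4G15950, chromosome 4, 9040683 to 9042129, plus strand) encodes a subunit shared by RNA polymerases IV and V, the polymerases of RNA-directed DNA methylation. It carried the adjacent pair C9040941G and C9040942G. The first, the last base of an annotated exon, changes R38G when taken alone. The second is the first base of the intron, and it turns the first 2 intron bases from CT in the reference to GT, the usual bases at that place. The second was read 24 times in 2-69, 13 in 2-20, 6 in 3-72, 12 in 3-75 and 16 in the rdr1 rdr2 rdr6 library.

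AT5G36320 (chromosome 5, minus strand), which RefSeq names an ECA1 gametogenesis related family protein, gained a stop by G14327194A (Q22*) in the pericentromere. It was read 19 times in 2-69, 32 in 2-20, 9 in 3-72, 10 in 3-75 and 38 in the rdr1 rdr2 rdr6 library. AT2G01008, at the start of chromosome 2, lost its annotated stop by A2111G (*180W), and 4 further missense changes lay in it (E79K, S80W, S150P and M174L). Its reads for A2111G ran from 1147 in 3-72 to 3529 in 2-69, against an arm median of 11 to 25, and whether reads of several copies were counted together there was not tested.

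Of the genes altered on the arms, those with most reads in the shallowest library were taken next. AT3G20362 carried A7104225G (Q40R), with 354 to 819 reads against an arm median of 11 to 25. GAMT1, which methylates gibberellins, carried C13352393G and G13352394C in the same codon. Taken alone these read R32P and R32G, and together they turn CGT into GCT, R32A. The first was read 27 times in 2-69, 30 in 2-20, 22 in 3-72, 35 in 3-75 and 21 in the rdr1 rdr2 rdr6 library. AT5G15110, of the pectate lyase family, carried G4896800A (V237I) with 21 to 49 reads. PHYE, the photoreceptor phytochrome E, carried A10044454T (F499I) with 20 to 35 reads, and OPT3, a transporter of the oligopeptide transporter family, carried C9247915A (G605W) with 18 to 50.

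SCL13, a GRAS family regulator, carried A9661411T (I466K) with 18 to 47 reads. AT4G15960, an alpha/beta hydrolase, carried T9046796A (D135V), and AT4G19580, of the DNAJ family, carried A10669042G (N196D). AT5G08670, of the ATP synthase alpha/beta family, carried G2821040T (P37H). AT2G48160, with a Tudor/PWWP/MBT domain, carried C19696553T (R11K) near the end of chromosome 2, and AT4G01350 carried T561780G (C481G). With DGK2, described above, these are 12 genes, of which 3 (AT5G15110, DGK2 and AT2G48160) carried a G/C to A/T change. Chromosome 4 between 9 and 14 Mb holds 6 of the 12, GAMT1 included.

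In the pericentromeres, the genes picked in the same way were AT2G08986, AT2G07981, AT2G07722, AT2G07638 and AT1G40104, all named uncharacterized proteins in RefSeq. AT2G08986 held 6 missense changes, the most of any gene, with between 142 and 2363 reads for each change in a library. AT1G40104 carried G15083367T (Q235H) with 136 to 315 reads, and AT2G07722 carried T3438797C (L19S) with 171 to 295. At these changes all 5 genes had far more reads than the arm median of 11 to 25, and whether reads of several copies were counted together there was not tested.

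6 codons held 2 fixed variants each. In 5 of them both together gave a residue that neither gave alone. In IP5PII, an inositol polyphosphate phosphatase, G9991520C and G9991521C read P573R and P573A alone and P573G together, with at least 5 reads in every library. In AMSH3, a deubiquitinating enzyme, A9139901C and T9139902A gave M202W together, with at least 4 reads. In BAM3, a receptor-like kinase, C10951982G and G10951983C read R721G and R721P alone and R721A together. BLH2, a homeodomain protein, had N485Q from A17371721C and C17371723A, which alone read N485H and N485K. In UGP3, A20795011T alone read D530E, and T20795012C read D530G both alone and together with it. IP5PII, AMSH3, BAM3 and BLH2 were named after their values were seen.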

How the data were processed

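Per the labels, genomic DNA was sequenced as pairs of 101-nt reads. The submitters' processing notes name Bowtie, SAMtools and the build TAIR10, and per the file headers calls were made with samtools 0.1.19-44428cd against a TAIR10 reference and written in VCF 4.1. Filters on the calls were not stated. The quality score of each call, deposited by the authors (phred-scaled, per the file headers), ran from 3.01 to 222, and mapping quality was 20 at every call. Sites without a call are not listed, so they may be reference sites or uncovered.

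Calls were matched by chromosome, position and called base. The lengths of 5 chromosomes and the reference base of all 34875 calls matched the RefSeq copy of the genome, whose gene models were used. The longest coding sequence of a gene was used for translation, and splice sites were the 2 intron bases at each exon border. Protein-altering means stop-gained, stop-lost, start-lost or missense. A base change is written as reference base, chromosome position and called base, and a protein change as reference residue, residue number and changed residue, with * for a stop.

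The 6 shares were tested with Fisher's exact test, two-sided, and p-values were adjusted over the 6 after Benjamini and Hochberg, with a threshold of 0.05. Wilson 95% intervals cover counting error only. The translation was checked on 1000 random coding changes and matched for 100%. The members, gene lists, tests and windows were chosen with earlier results of these data known. Named genes are RDR1, RDR2, RDR6, DDM1, genes with a stop, start or splice-site change, list genes with a protein-altering change, and 12 arm and 5 pericentromeric genes with most reads in the shallowest library. Python 3.11.15, numpy 2.4.6, scipy 1.17.1 and matplotlib 3.10.9 were used.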

Additional observations from a re-analysis of the deposited data

How the results depend on the processing

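The number of fixed variants was 918 as called, and 531 where every library had 10 reads or more and a quality of 50 or more. It was 976 when homozygosity in 4 libraries sufficed, still with a call in all 5. Leaving out each library in turn gave 935 to 969 fixed variants and moved no difference in a share across its threshold. The difference in clustered share was 4.17 points on the arms and −2.80 against all variants that are not fixed. Keeping 1 variant per kb gave 0.306 points, but this removes the neighbours within 100 bp that the share counts and so is no check of it. Against that wider comparison set the difference was −23.5 points in G/C to A/T share, −1.03 in pericentromeric share and −0.461 in coding share. Within pericentromeres the differences were −1.08 points in G/C to A/T share and 0.540 in coding share. The cause of the shifts by region and comparison set was not tested. The protein-altering and RDR6 comparisons stayed on the same side of the threshold under the 16 and 18 alternatives run for each. The splits by region, the exclusion of the chromosome 5 stretch, of both ends of chromosome 2 and of variants at 3 times the arm depth were chosen after seeing the data. Without the chromosome 5 stretch the G/C to A/T difference was 0.513 points. Low depth limits 3-72 most. No paired analysis was possible because each line has 1 library and the numbers compared are shares of calls.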
